A study of Macaca fascicularis and Mus musculus with 42 samples.

Results

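The genes described here encode the subunits of the mitochondrial respiratory chain and of the ATP synthase that it drives, measured while embryonic stem cells (ESC) of the cynomolgus monkey were turned into primordial germ cell-like cells, a model in culture of the first cells set aside for the germ line. They were chosen by symbol alone (the NDUF subunits with a letter and a number, SDHA to SDHD, all UQCR genes, CYC1, COX4 to COX8 and all ATP5 genes), not by a measured value, though with earlier results of these data known. This gave 80 of the 26018 entries of the monkey table. Of these, 54 carried the symbol in the deposited table and 26 were deposited as unnamed entries and took their name from RefSeq through the gene ID; the latter include SDHA and all chosen members of the COX4 to COX8 and UQCR families and CYC1. By complex they were 35 genes of complex I, 4 of complex II, 8 of complex III, 17 of complex IV, 14 of complex V and 2 other genes caught by their names (ATP5S and ATP5SL). In the mouse table, 85 of 34896 genes met the same rule, and 79 of the names were shared. None of the 13 subunits that the mitochondrial genome encodes was matched in the monkey table, so only nuclear genes are described.

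The respiratory chain passes electrons from NADH (complex I) and succinate (complex II) through ubiquinone, complex III and cytochrome c to oxygen at complex IV, and the proton gradient built on the way drives ATP synthesis by complex V. Complex II is also an enzyme of the citrate cycle, with SDHA as its catalytic flavoprotein, SDHB as its iron-sulfur subunit and SDHC and SDHD as its membrane anchor. Pluripotent stem cells are known for a strongly glycolytic metabolism, and germ cell specification is known to be accompanied by a change in metabolism.

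The induced cells and their reporter ESC carried Blimp1-tdTomato and TFAP2C-EGFP transgenes, which report PRDM1 and TFAP2C, a pair of early germ line transcription factors. All reporter-line libraries used were of line 656BTAG42 except reporter ESC library 2, which was of line 656BTAG63. Reporter ESC (4 libraries) grew in AITS medium with bFGF and the inhibitor IWR1, as did 5 ESC libraries of lines without transgenes (CMK6 for libraries 1 and 2, 656 for library 3, 681F for library 4 and 22 for library 5). For induction, ESC were aggregated with BMP4, SCF, EGF, LIF and Y27632 in GK15 medium (GMEM with knockout serum replacement) or aRB27 medium (Advanced RPMI1640 with B27). Cells positive for both reporters (BTAG) gave 15 libraries: in GK15, 1 on day 2, 1 on day 4, 2 on day 6, 2 on day 8 and 2 on day 10, and in aRB27, 2 on day 2, 2 on day 4 and 3 on day 6. Cells positive for the PRDM1 reporter alone (BT) gave 3 libraries, all in aRB27, 1 on day 2 and 2 on day 4, and cells with a middle level of the TFAP2C reporter (AG mid) gave 2, 1 in aRB27 on day 2 and 1 in GK15 on day 4. Mouse cells of line R8, with Blimp1-membraneVenus and Dppa3-ECFP transgenes, gave 2 libraries on day 4 and 2 on day 6 of an induction with the same factors in GK15, started from epiblast-like cells. A further 9 monkey libraries of doubtful label, whose markers went against their labels, were left out, and library numbers have gaps for that reason.

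The values are RPM, reads of a gene scaled to the total reads of the library, from the 3′ ends of transcripts, so levels were compared between libraries and not between genes. The 29 monkey libraries held 1.077 to 6.799 M reads and detected 12655 to 16052 genes. The labels do not say that libraries of a group were separate cultures, so p-values measure the spread between these libraries. The BTAG and BT libraries kept matched their gates by markers. Libraries whose markers went against their labels had been left out, so this match is no independent check of identity. PRDM1 was at 117.65 to 318.24 RPM in the BTAG libraries, 85.07 to 114.32 in BT, 0.9 and 11.14 in AG mid and at most 2.59 in ESC. TFAP2C was at 337.1 or more in BTAG and at most 3.48 in BT. In AG mid TFAP2C was at 145.65 RPM in aRB27 but at 24.35 RPM in GK15, beside at most 14.24 RPM in the ESC. BT libraries were high in the endoderm marker GATA6 (220.36 to 480.29 RPM), and the AG mid libraries in the mesoderm marker HAND1 (2459.06 and 2541.34 RPM), while SOX2 marked the reporter ESC (311.23 to 398.29 RPM). The 5 amnion markers summed to 872.23 RPM in AG mid of aRB27 and 655.45 RPM in that of GK15, mostly GATA3 and ISL1, against 123.68 to 375.62 RPM in BTAG, and their part in the AG mid results was not tested. In the reporter ESC the 6 mesoderm or stroma markers summed to 676.01 to 1978.82 RPM, with HAND1 at 0 in all 4 libraries. In BTAG they summed to 29.55 to 38.72 RPM on day 6 in GK15. Over all BTAG libraries the sum ran from 17.65 RPM on day 8 in GK15 to 379.65 RPM on day 2 in aRB27. The part of this difference in the results was not tested. In bulk samples, fewer cells of a type and less RNA per cell cannot be told apart.

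The respiratory chain genes together took a like share of the library in reporter ESC and BTAG cells, with overlapping ranges, and 1 library stood apart within them. Their summed level was 20120 to 25015 RPM in reporter ESC and 16395 to 24182 RPM in the 15 BTAG libraries, or 1.53% to 3.0% of the RPM over all 29 libraries. In library 1 of the transgene-free ESC (line CMK6) complex IV summed to 707 RPM, against a median of 4720 RPM over the 29 libraries. In that library COX7B stood at 27.31 RPM, where the other transgene-free libraries had 552.63 to 646.28 RPM. COX8A, at 16.38 RPM, was likewise below the 442.49 to 482.09 RPM of the others. ATP5A1, at 4230.45 RPM, and ATP5B, at 2990.81 RPM, were instead above the ranges of the others, 1559.48 to 1729.67 and 1154.35 to 1395.51 RPM.

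The members were also split by transcript length, read from the mouse mRNA of the same name as a stand-in (79 of 80 members had one). The 25 members with the shortest mouse mRNA (up to 623 nucleotides) summed to 0.0888 times the 25 longest (from 1102.5 nucleotides) in that library. In the 24 reporter-line libraries this ratio ran from 0.970 to 2.07, with a median of 1.69. The lowest reporter-line libraries were reporter ESC library 2 (0.970), aRB27 BTAG day 6 libraries 1 (0.971) and 3 (1.08) and GK15 BTAG day 6 library 1 (1.11), and the next higher value was 1.46. All of these low libraries except aRB27 day 6 library 3 had the code MS134 in their titles, which in BTAG occurred only on day 6. Reporter ESC library 1 (1.55) and the GK15 AG mid library (1.75) had it too, and the other reporter-line libraries had MS162. The part of this code in the ratio was not tested. The summed level of 79 ribosomal protein genes, which have short mRNAs, was 6.98% of the RPM in transgene-free library 1 and 15.3% to 26.1% in the reporter-line libraries. Of the low reporter-line libraries, reporter ESC library 2 had 15.3%, the lowest value, and GK15 BTAG day 6 library 1 had 16.7%. The aRB27 day 6 pair was not low (20.5% and 21.7%). Results that rest on these libraries are given with and without them, and the part of transcript length in them was not tested.

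**Figure D1:**
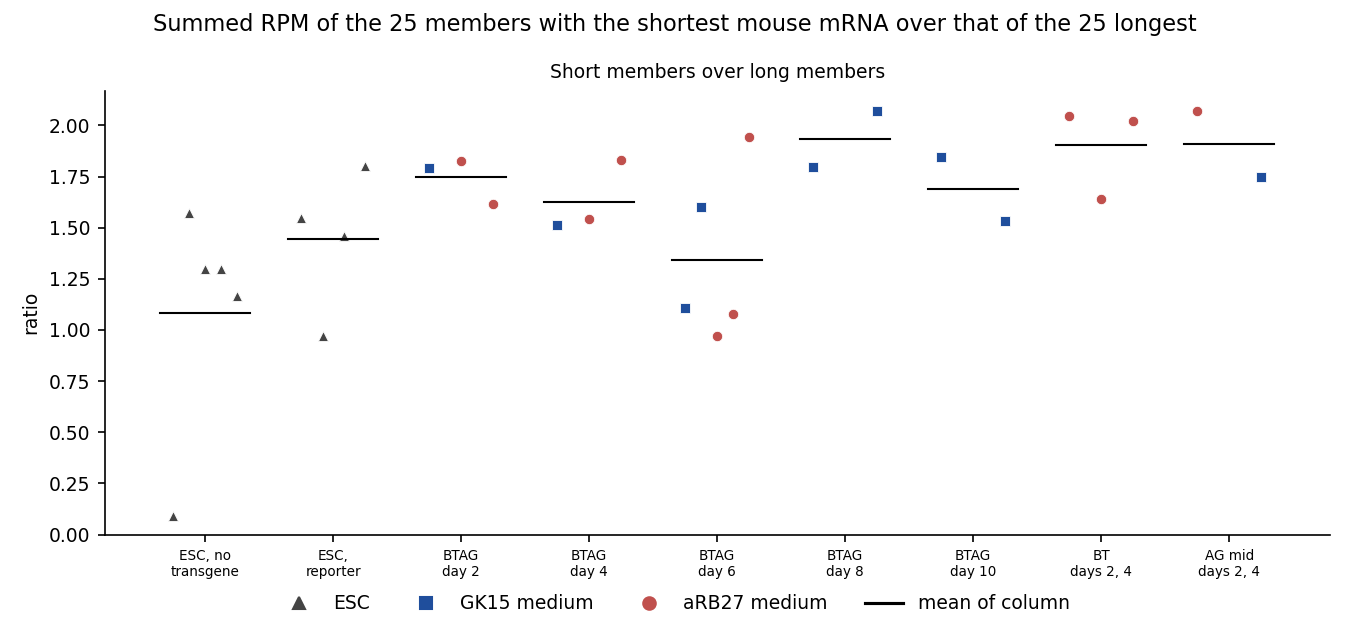
Summed RPM of the 25 members with the shortest mouse mRNA divided by that of the 25 members with the longest, for each of 29 monkey libraries by group (triangles ESC, squares GK15, circles aRB27, lines means of a column). Transgene-free library 1 lies at 0.0888 and library 5 at 1.17. Of the reporter line, 3 of the 5 BTAG day 6 libraries and 1 reporter ESC library lie between 0.970 and 1.11, below the others.

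The first question was how BTAG cells differ from the reporter ESC they were made from. On day 6 in GK15, 3 of 76 tested members rose (SDHA, COX7B and COX8A) and 4 fell (NDUFC1, NDUFS4, UQCRH and ATP5E), by limma on log2(RPM + 1) with Benjamini-Hochberg adjusted p under 0.05. Of all 10701 entries tested, 31.4% were called in this comparison (17.1% rose and 14.3% fell), beside 9.21% of the members. The median log2 difference was -0.12 over the members and 0.01 over all entries. Without the libraries that were low in short members, 2 members were called, SDHA and COX7B, beside 19.2% of all entries. Fewer libraries enter that fit, so where a lost call is described below the difference is given beside it. Not every lost call is described. Leaving out GK15 day 6 library 1 alone gave 2 calls, and leaving out GK15 day 6 library 3 or reporter ESC library 1 gave 3.

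On day 6 in aRB27, 3 of 76 members rose (SDHA, COX4I2 and COX7A2L) and 17 fell, beside 37.4% of all entries called in either direction and 20.2% that fell. Those that fell came from every complex: 6 of 35 tested in complex I, SDHD in complex II, 3 of 8 in complex III, COX7C in complex IV, 5 of 14 in complex V, and ATP5SL. The median was -0.29 over the members and -0.08 over all entries. This count rested on libraries 1 and 3. Without the libraries low in short members, which leaves library 4 alone on day 6 and a spread borrowed from the other groups, 3 members were called, beside 20% of all entries, and of these SDHA and SDHD were also called with all libraries. Leaving out library 3 left 6 calls, library 1 left 9, and library 4, the library not low in short members, gave 31. With median-of-ratios scaling 3 rose and 9 fell, and with quantile normalization 3 rose and 8 fell.

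On days 8 and 10 in GK15, 6 of 76 members rose and 18 fell, beside 22.1% and 26.6% of all entries (48.7% in either direction). The median was -0.12 over the members and -0.09 over all entries. Complex V had 7 of 14 members fall and none rise, and complex IV had 4 of 13 tested members rise and none fall. Without the libraries low in short members 25 were called, beside 44.8% of all entries, 19 of them in both fits, and without day 10 library 2 the count was 15. With median-of-ratios scaling 7 rose and 12 fell, and with quantile normalization 8 rose and 10 fell. On day 2, the earliest time sampled, 2 members rose (SDHA and COX4I2) and 4 fell (SDHD, UQCRC2, ATP5F1 and ATP5H), beside 21.8% of all entries (13.4% rose and 8.36% fell), and 2 rose and 9 fell with median-of-ratios scaling. The count was 3 with the title code as a term, 3 with only the groups compared and 0 with all libraries as labelled. With a log2 difference of at least 1 as a further condition, 2 members were called on day 6 in GK15, 5 on day 6 in aRB27, 2 on day 2 and 3 on days 8 and 10, beside 24.8%, 25.9%, 16% and 31.1% of all entries. These comparisons share the 4 reporter ESC libraries.

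**Figure D2:**
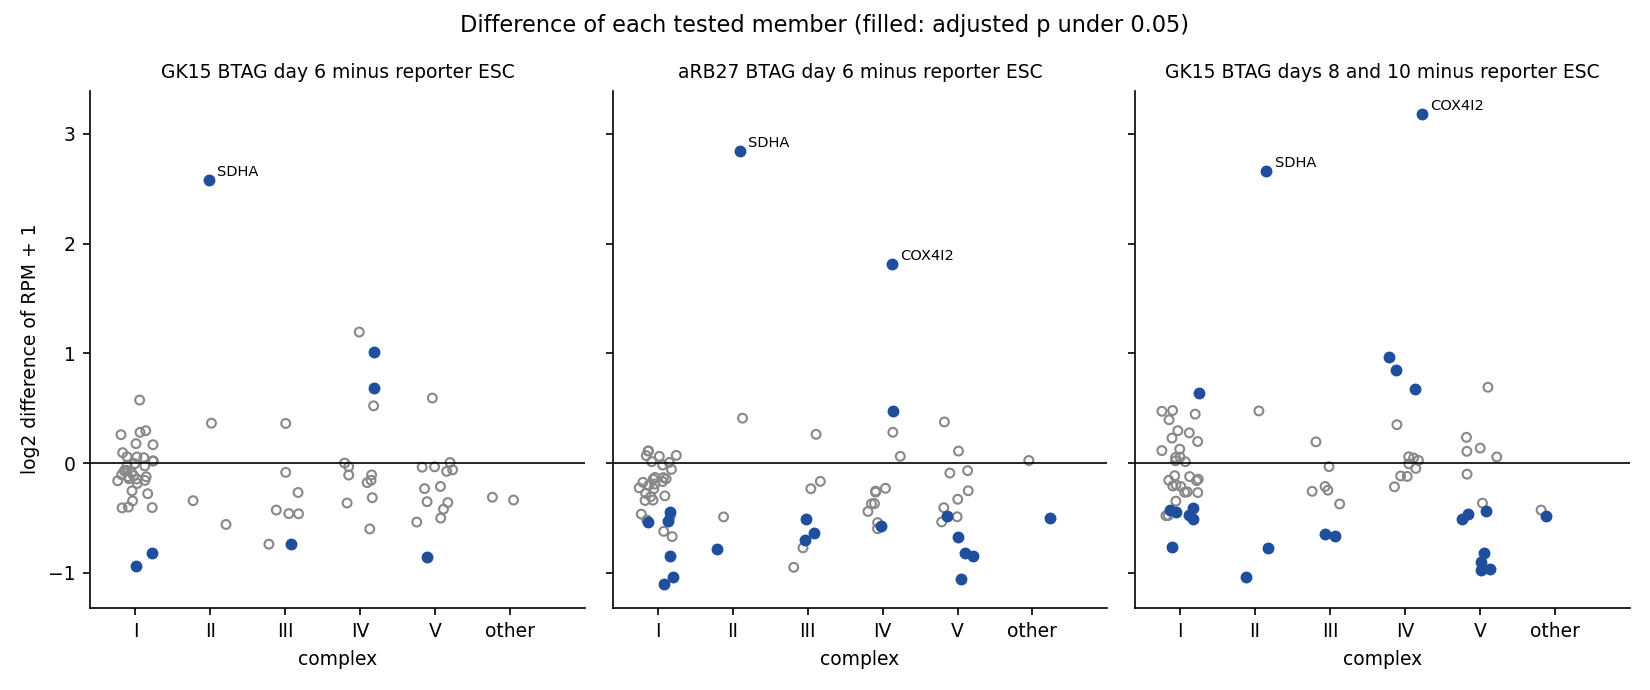
Log2 difference of RPM + 1 for each of the 76 tested members, by complex, between BTAG cells and reporter ESC in 3 comparisons (points are genes, filled where the adjusted p was under 0.05). SDHA lies at 2.58, 2.84 and 2.66, apart from the other members of complex II, and COX4I2 reaches 3.18 on days 8 and 10.

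Within complex II, SDHA parted from SDHB and SDHD. SDHA was at 35.59, 28.91, 31.21 and 23.17 RPM in the reporter ESC. On day 2 the BTAG libraries had 65.55 RPM in GK15 and 78.29 and 85.29 RPM in aRB27. From day 4 to day 10 the 12 BTAG libraries lay between 146.8 and 243.74 RPM. Every BTAG library was thus above every ESC library, the transgene-free ones included (40.84 to 58.6 RPM), and the day 2 libraries lay between ESC and the later days. SDHA rose by 2.58 ± 0.24 (log2 ± SE, adjusted p 1.48e-07 by limma) on day 6 in GK15 and by 2.84 ± 0.21 (6.26e-09) in aRB27. The rise was 1.29 ± 0.22 (2.68e-04) on day 2 and 2.66 ± 0.20 (3.33e-09) on days 8 and 10. The level also rose with the day among the 15 BTAG libraries, by 0.20 ± 0.04 per day (adjusted p 2.03e-03).

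The other gates did not share this level of SDHA. The BT libraries had 30.41 RPM on day 2 and 57.24 and 40.52 RPM on day 4. The AG mid libraries had 36.72 RPM in aRB27 and 27.19 RPM in GK15. On day 4 in aRB27, SDHA was lower in BT than in BTAG cells by a log2 difference of -1.85 ± 0.28 (limma adjusted p 9.91e-05, 2 libraries against 2), and lower in AG mid than in BTAG at matched day and medium by -1.83 ± 0.26 (7.38e-05, 2 libraries against 3). The ranges did not overlap in either case. Primate genomes hold near-identical copies of SDHA, between which the counting could split reads, and the entry was named by gene ID alone. Among the 9 libraries left out, SDHA did not follow the labels in GK15: 2 labelled AG mid had 166.51 and 221.45 RPM, and 3 labelled BTAG had 27.89 to 49.57 RPM. Those labelled BTAG in aRB27 had 187.76, 168.6 and 181.34 RPM, within the range of BTAG from day 4 on. The left-out reporter ESC library had 73.51 RPM, above every ESC library used. With these 9 libraries taken as labelled, SDHA stood at 1.43 on day 6 in GK15, 0.77 on day 2, -1.85 in BT and -0.66 in AG mid, and these 4 calls were lost (limma adjusted p 0.209, 0.446, 0.218 and 1).

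None of the partners of SDHA was called as rising in BTAG cells. SDHD was at 196.95, 314.58, 192.09 and 209.04 RPM in the reporter ESC and between 94.27 and 168.23 RPM in the BTAG libraries. These ranges did not overlap, and the BT and AG mid libraries (124.81 to 158.85 RPM) lay within the BTAG range. Among the libraries left out, the reporter ESC library had 151.82 RPM, within the BTAG range. The GK15 libraries labelled BTAG had 177.3, 225.15 and 298.3 RPM, above that range, and those in aRB27 had 90.93 to 111.3 RPM. The transgene-free ESC were at 193.87, 125.21, 190.91, 224.9 and 160.33 RPM, of which 2 lay within the BTAG range. SDHD fell on day 2 by a log2 difference of -0.90 ± 0.20, on day 6 in aRB27 by -0.79 ± 0.19 and on days 8 and 10 by -1.04 ± 0.18 (limma adjusted p 2.46e-03, 3.08e-03 and 8.25e-05), and stood at -0.56 on day 6 in GK15, which was not called. SDHB was at 162.97, 217.05, 163.08 and 124.99 RPM in the reporter ESC, and fell only on days 8 and 10 among the comparisons with ESC, to 97.7 ± 22.3 RPM (SD, n = 4; log2 difference -0.77 ± 0.20, adjusted p 3.79e-03). SDHC, at 6.15 to 21.01 RPM in reporter ESC and 8.3 to 27.12 RPM in BTAG, was called in no comparison. On day 4 in aRB27 SDHC was at 19.58 and 19.93 RPM in BTAG and at 6.47 and 9.41 RPM in BT, lower in BT as SDHA was. The AG mid libraries had 9.9 RPM in aRB27 and 8.22 RPM in GK15. At so low a level a change of SDHC may have been missed.

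**Figure D3:**
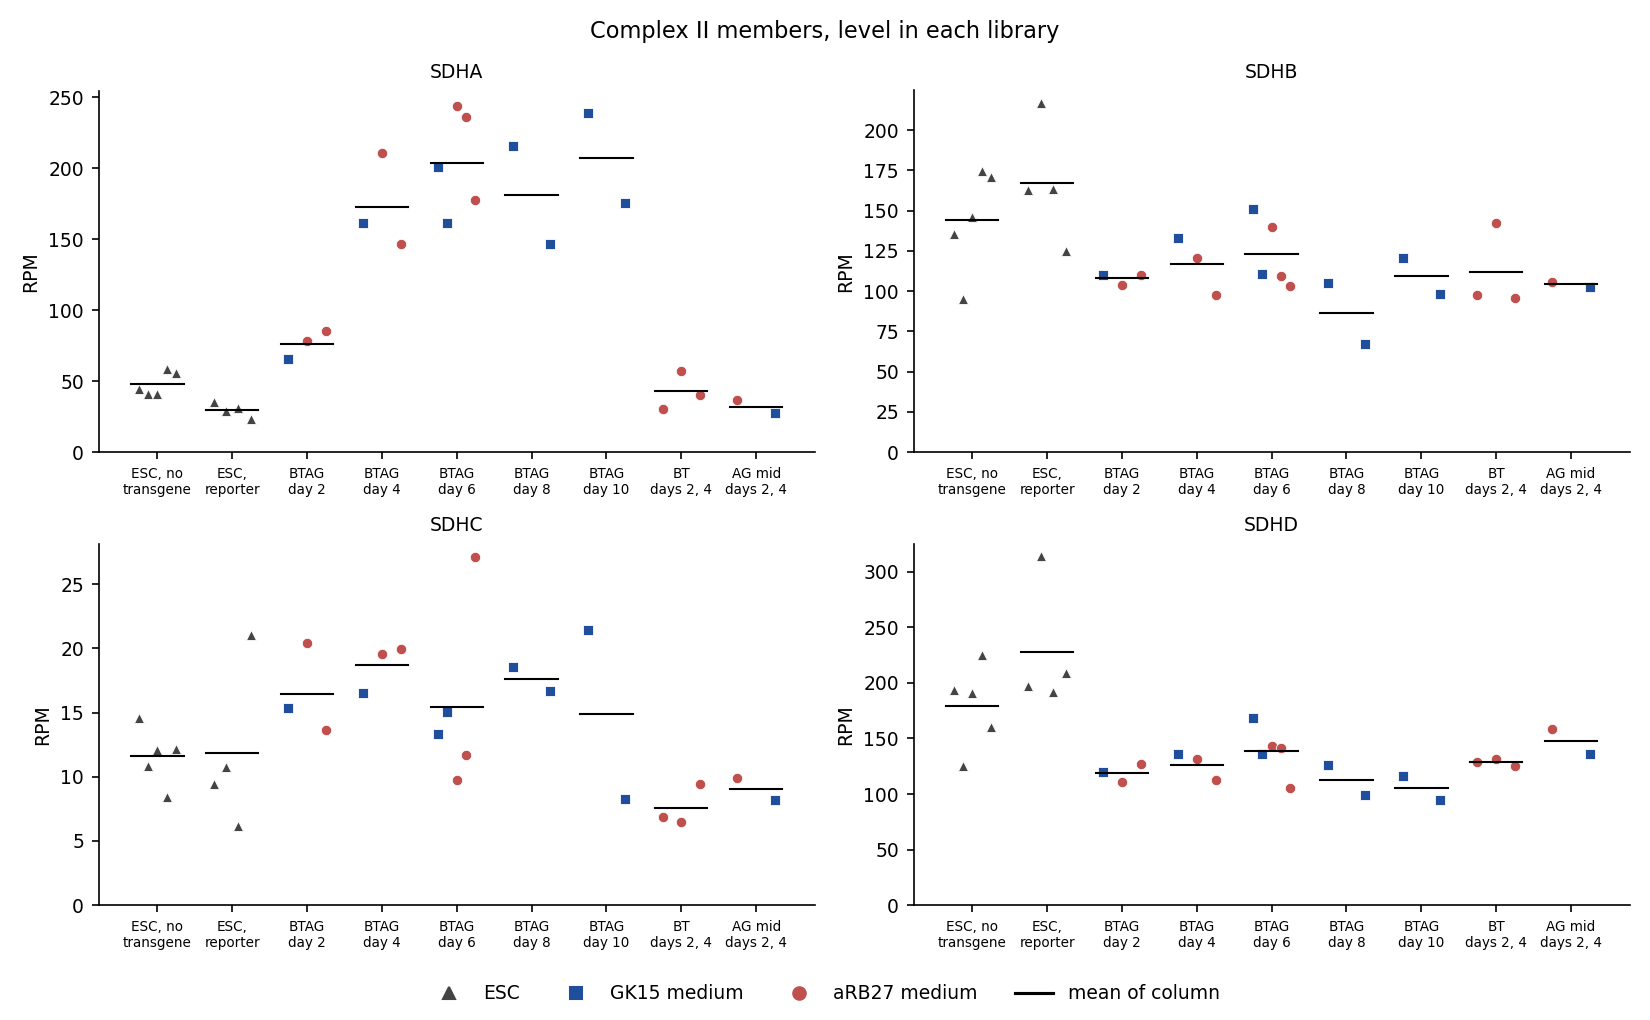
RPM of the 4 complex II genes in each of 29 monkey libraries, by group (triangles ESC, squares GK15, circles aRB27, lines means of a column). SDHA is at 65.55 to 243.74 RPM in all 15 BTAG libraries and at most 58.6 RPM in ESC, BT and AG mid libraries, while SDHD is at 192.09 RPM or more in the 4 reporter ESC libraries and at most 168.23 RPM in the BTAG libraries.

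In complex I, the NADH dehydrogenase, 35 members were tested and few moved. NDUFS4, an accessory subunit of the peripheral arm, was at 316.82, 238.2, 420.67 and 290.39 RPM in reporter ESC. In BTAG it was between 194.91 and 291.47 RPM on days 2 and 4 and between 106.7 and 230.27 RPM from day 6. It fell on day 6 in GK15 (-0.81 ± 0.29), day 6 in aRB27 (-1.10 ± 0.25) and days 8 and 10 (-0.76 ± 0.23), with limma adjusted p of 0.0352, 1.86e-03 and 0.0112, and with the day of induction (-0.12 ± 0.04 per day). Both day 6 calls were lost without the libraries low in short members, at -0.55 in GK15 and -0.59 in aRB27. NDUFC1, a small membrane arm subunit, fell on day 6 in both media (-0.94 ± 0.33 and -1.04 ± 0.29), from 221 ± 35.8 RPM in reporter ESC (SD, n = 4), and these calls were lost too, at -0.77 in GK15 and -0.17 in aRB27. NDUFB9, a membrane arm subunit, was at 76.59, 63.9 and 136.27 RPM on day 6 in aRB27 and at 112.63 to 182.53 RPM in reporter ESC, and its fall there (-0.85 ± 0.25, adjusted p 0.0127) was likewise lost (-0.37). On days 8 and 10 a further 5 complex I members fell, NDUFV2 (-0.51), NDUFA4 (-0.48), NDUFB6 (-0.45), NDUFA9 (-0.43) and NDUFB5 (-0.41), and 1 rose, NDUFV3 (0.64 ± 0.25), an accessory subunit of the NADH-binding module. The calls of NDUFV2, NDUFA9 and NDUFV3 were lost without the libraries low in short members, at -0.41, -0.43 and 0.45. NDUFA4, found by its name here, is known as a subunit of complex IV rather than complex I.

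NDUFS1, the large iron-sulfur subunit of the NADH-oxidizing arm, was lower in the BT and AG mid libraries than in BTAG, and was called only in BT. It was at 49.77 and 55.71 RPM in BT on day 4 and at 111.71 and 89.05 RPM in BTAG of the same day and medium. The BT library of day 2 had 53.64 RPM, and the AG mid libraries 61.06 and 70.07 RPM, so all 5 libraries of these gates lay below the 15 BTAG libraries (73.62 to 137.83 RPM). NDUFS1 fell in BT by -0.91 ± 0.26 (limma adjusted p 0.0212). It was called in no comparison of BTAG with ESC.

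In complex III, UQCRC2, a core subunit, was at 249.7 ± 46.6 RPM in reporter ESC (SD, n = 4). It fell on day 2, to 167 ± 7.41 RPM (n = 3, log2 difference -0.57 ± 0.19, limma adjusted p 0.0367), and on days 8 and 10, to 156 ± 12.8 RPM (n = 4, -0.66 ± 0.17, 3.32e-03). The day 2 call was lost without the libraries low in short members (-0.46, adjusted p 0.0619). Cytochrome c1, encoded by CYC1, fell on day 6 in aRB27 (-0.51 ± 0.20) and on days 8 and 10 (-0.64 ± 0.18), where its range, 93.51 to 161.25 RPM, overlapped that of the ESC, 157.8 to 248.56 RPM, and of these the day 6 call was lost without the libraries low in short members (-0.23). UQCRH, the hinge protein that binds cytochrome c1, fell on day 6 in both media (-0.74 ± 0.24 and -0.64 ± 0.21), and both calls were lost without the libraries low in short members, at differences of -0.76 and -0.55. UQCR11, a small subunit, fell on day 6 in aRB27 (-0.70 ± 0.23), with 202.7, 234.51 and 419.38 RPM against 301.63 to 516.27 RPM in reporter ESC, a call that was also lost without those libraries (-0.25). No complex III member rose in any comparison with ESC.

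Complex IV, cytochrome c oxidase, held most of the members that rose. COX7A2L, which is known for its part in joining complexes III and IV into supercomplexes, was at 159, 155.78, 214.95 and 151.93 RPM in reporter ESC. In BTAG it was between 115.99 and 151.55 RPM on day 2, between 183.7 and 188 RPM on day 4, and between 173.97 and 289.04 RPM on day 6. On days 8 and 10 it was at 254.42, 301.28, 296.89 and 374.06 RPM, above every ESC library. It rose on days 8 and 10 by 0.85 ± 0.17 (limma adjusted p 4.33e-04) and with the day by 0.16 ± 0.03 per day (3.60e-04), and both were called without the libraries low in short members too. Its call on day 6 in aRB27 (0.48 ± 0.18, adjusted p 0.0474) was lost without them, with a difference of 0.01.

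COX7B, a small nuclear subunit of complex IV, was at 644.24, 403.04, 650.56 and 716 RPM in reporter ESC. On day 4 the 3 BTAG libraries had 1384.64, 1373.29 and 1429.15 RPM. On day 6 they split: in GK15 library 1 had 886.96 and library 3 had 1602.86 RPM, and in aRB27 libraries 1 and 3 had 468.44 and 552.86 RPM and library 4 had 1422.85 RPM. The libraries with lower values on day 6 are those low in short members. COX7B rose on day 6 in GK15 (1.01 ± 0.34, limma adjusted p 0.0267) and on days 8 and 10 (0.97 ± 0.27, 6.78e-03), and in aRB27 on day 6 it was called only without those libraries (1.09, adjusted p 1.73e-03). COX8A, another small subunit, rose on day 6 in GK15 (0.69 ± 0.26, 0.0483) and on days 8 and 10 (0.67 ± 0.21, 0.0125), from 372 ± 68.6 RPM in reporter ESC (SD, n = 4) to 595 ± 128 RPM (n = 4) on days 8 and 10. Its day 6 call was lost without the libraries low in short members (0.74, adjusted p 0.0517).

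**Figure D4:**
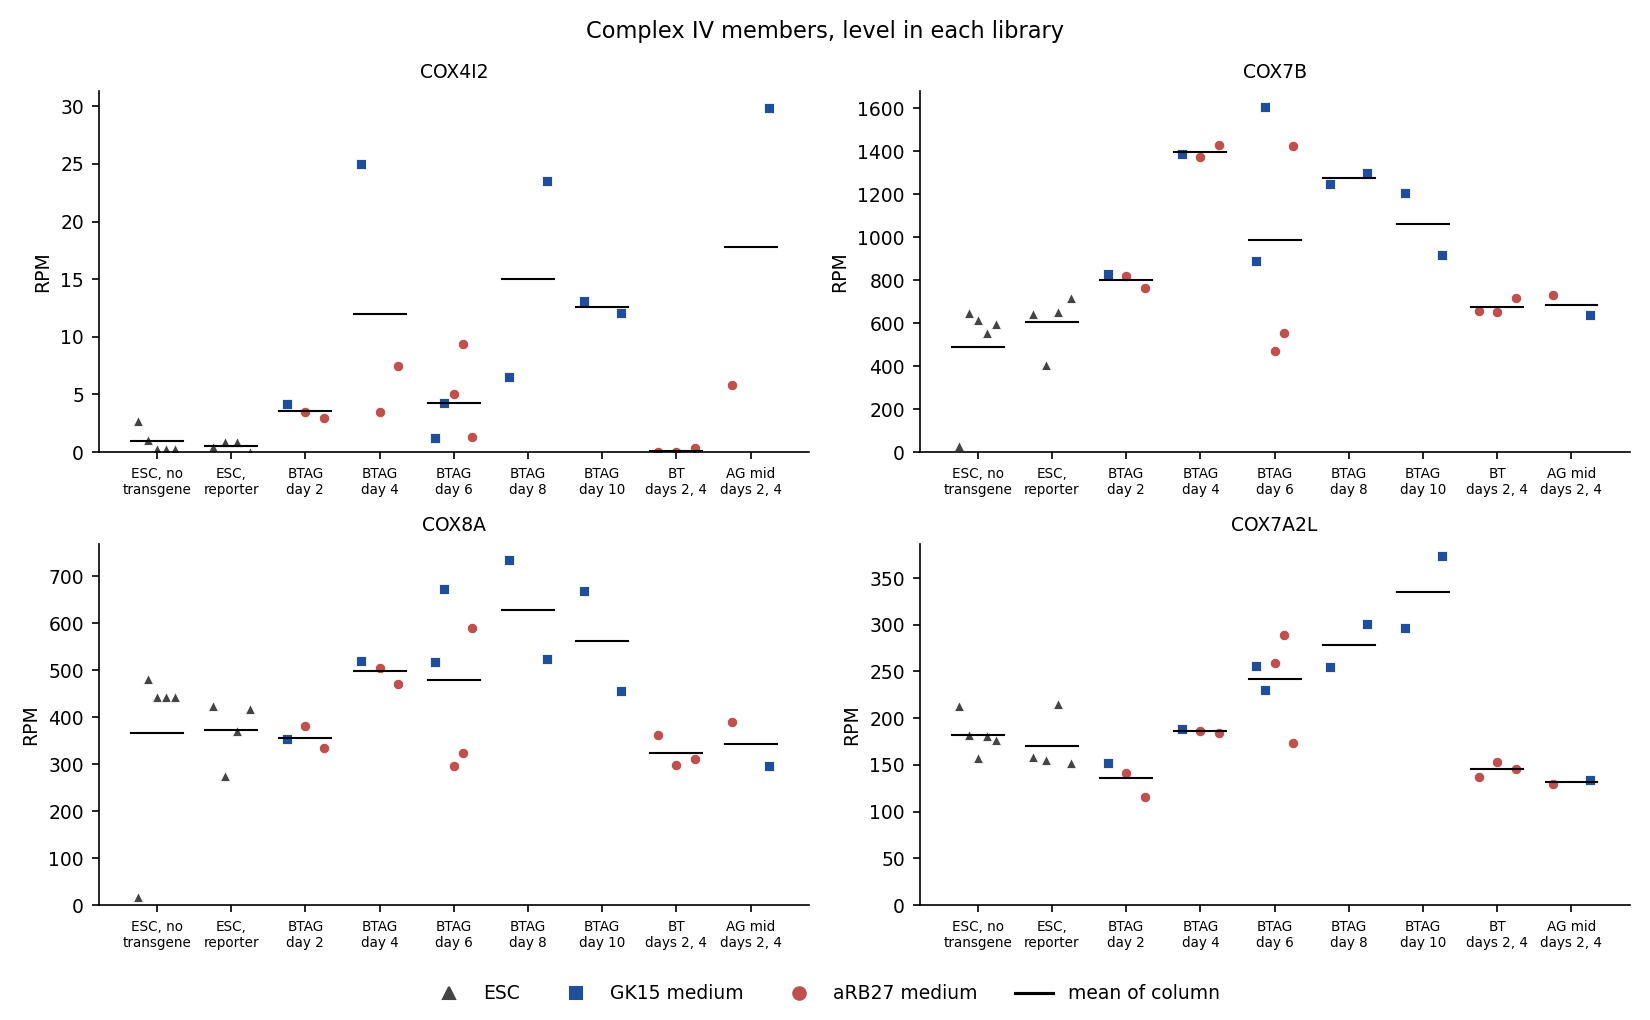
RPM of 4 complex IV genes in each of 29 monkey libraries, by group (triangles ESC, squares GK15, circles aRB27, lines means of a column). COX7A2L is at 254.42 to 374.06 RPM on BTAG days 8 and 10, above every ESC library, COX7B reaches 1373.29 RPM or more in all 3 BTAG libraries of day 4, and COX4I2 stays under 1 RPM in reporter ESC.

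Several complex IV subunits exist as an ubiquitous and a tissue-restricted isoform. COX4I2, the isoform of COX4I1 known from lung and from its induction at low oxygen, was at 0 to 0.88 RPM in reporter ESC and at most 2.73 RPM in the transgene-free ESC. In BTAG it was at 2.92 to 4.18 RPM on day 2 and at 6.5, 23.48, 13.15 and 12.07 RPM on days 8 and 10. It made up 0.372% ± 0.321 (SD, n = 4) of the summed RPM of the pair in reporter ESC and 8.42% ± 0.705 (n = 2) on day 10. The course in GK15 was not steady: the day 4 library had 25 RPM, or 13.6% of the pair, and the day 6 libraries 1.25 and 4.22 RPM, or 1.06% and 3.33%, where COX4I2 was not called. COX4I2 rose on day 2 (1.64 ± 0.54, limma adjusted p 0.0351), on day 6 in aRB27 (1.81 ± 0.52, 0.0100) and on days 8 and 10 (3.18 ± 0.48, 2.39e-05). The call on day 6 was lost without the libraries low in short members (0.74, adjusted p 0.517). These differences, on the log2(RPM + 1) scale, understate a change from so low a level, which rests on few reads. It was lower in BT than in BTAG on day 4 (-2.40 ± 0.68, 0.0191), with 0 and 0.36 against 3.45 and 7.47 RPM. Unlike SDHA it was not low in AG mid, with 5.78 RPM in aRB27 and 29.88 RPM in GK15, beside 25 RPM in the GK15 BTAG library of day 4. COX4I1 itself, at 112.2 to 189.01 RPM in reporter ESC, was called in no comparison.

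The ubiquitous isoforms of the next 3 pairs were called in no comparison: COX6A1 was at 576.51 to 711.6 RPM in reporter ESC and 440.51 to 769.97 RPM in BTAG. COX6B1 was at 266.68 to 433.46 and 205.66 to 448.49 RPM in the same groups. COX7A2 was at 227.26 to 435.31 and 158.69 to 504.21 RPM, and at 467.85 to 543.02 RPM in the BT libraries. The restricted isoforms other than COX4I2 were low. COX6A2, the heart and muscle isoform of COX6A1, was listed at 0 in all 29 libraries. COX7A1, the muscle isoform of COX7A2, was at 1.27 to 12.46 RPM in BTAG and 2.59 to 7.8 RPM in reporter ESC and was called in no comparison. COX6B2, COX7B2 and COX8C, known from testis, were under the filter of 10 RPM in at least 2 libraries in the reporter-line fit, and with COX6A2 they are the 4 members not tested there. COX6B2 was at 0 to 6.34 RPM in BTAG and at 5.46 to 15.16 RPM in the transgene-free ESC. COX7B2 reached 67.12 RPM in transgene-free library 2 and at most 18.09 RPM in any other. The 4 muscle markers measured summed to at most 82.8 RPM in any ESC library and at most 3.01 RPM in BTAG on day 6, with MYL2 at most 1.08 RPM in all 29 libraries.

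Complex V, the ATP synthase, was lower in BTAG than in reporter ESC as a sum. The 14 members summed to 8531 ± 286 RPM in reporter ESC (SD, n = 4), with a range of 8141 to 8827 RPM. The 15 BTAG libraries ran from 5378 to 7546 RPM, below all ESC libraries used, and the transgene-free ESC from 8655 to 10407 RPM. Among the libraries left out for a doubtful label, the reporter ESC library lay within this BTAG range and the GK15 BTAG library of day 6 above it. The other induced cells were mostly below the reporter ESC too. The AG mid libraries were at 7401 RPM in aRB27 and 6905 RPM in GK15. The BT libraries were at 7489 RPM on day 2 and at 8156 and 7034 RPM on day 4, of which 8156 RPM lay within the reporter ESC range. The sums of the other large complexes overlapped between reporter ESC and BTAG: complex I had 6175 to 8379 against 5122 to 8505 RPM, complex III 1726 to 2373 against 1296 to 2129 RPM, and complex IV 3374 to 5185 against 3051 to 5902 RPM.

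**Figure D5:**
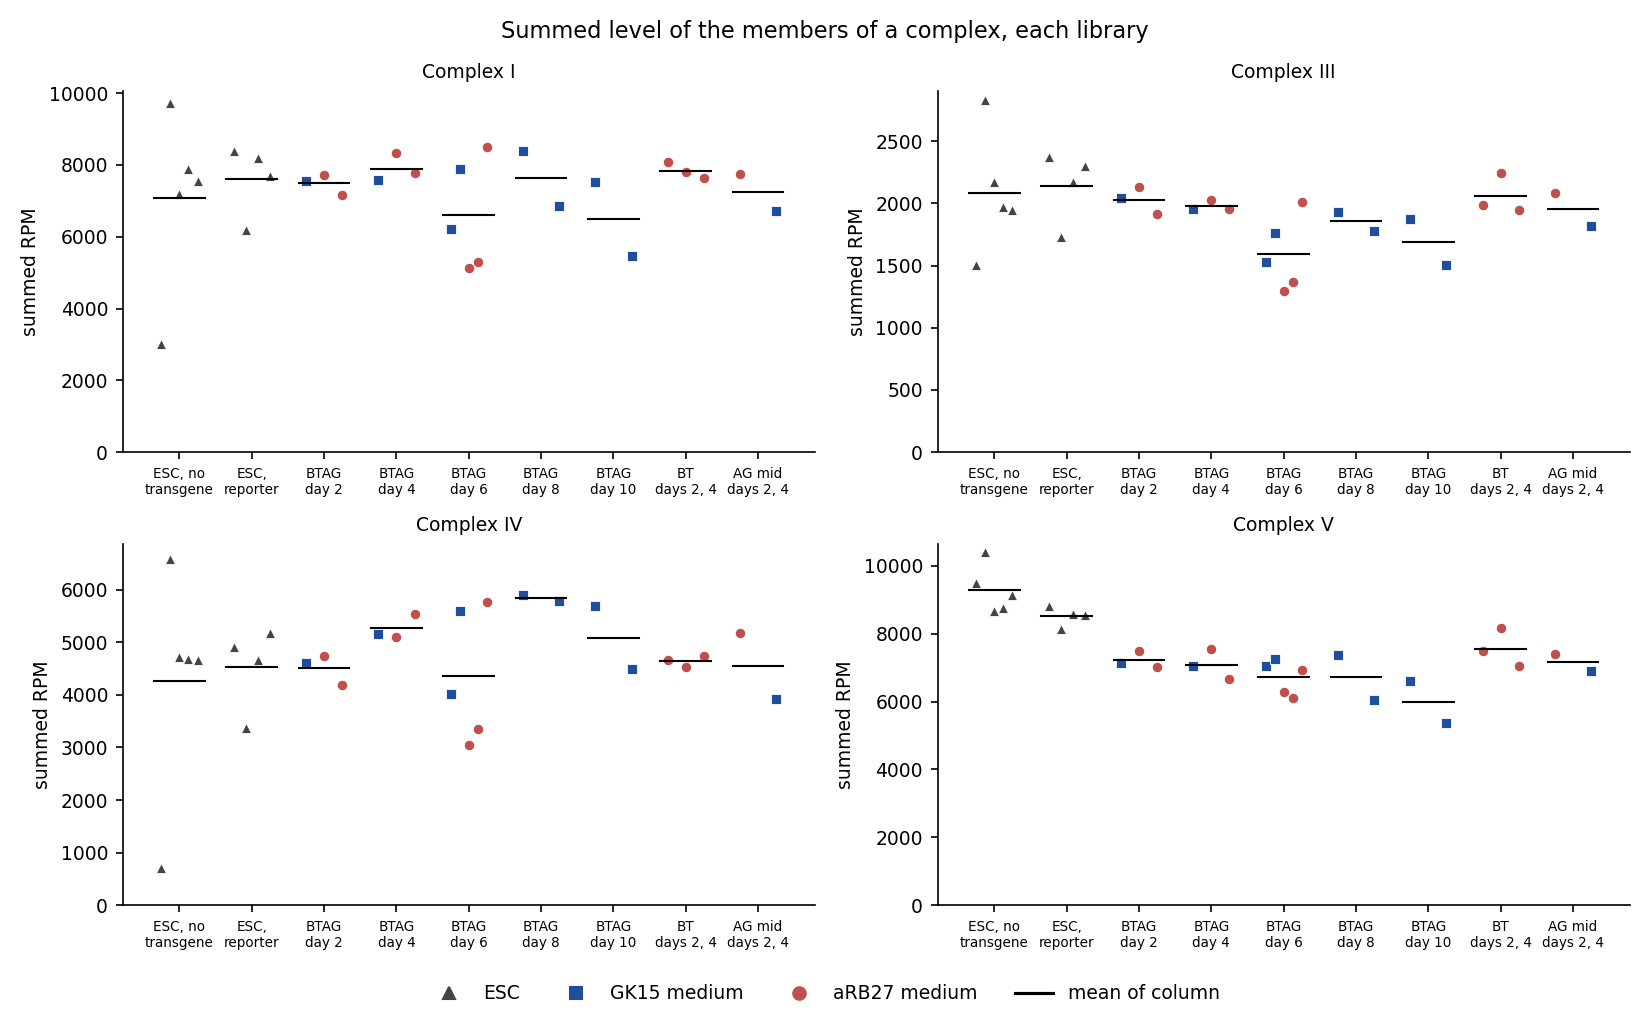
Summed RPM of the members of complexes I, III, IV and V in each of 29 monkey libraries, by group (triangles ESC, squares GK15, circles aRB27, lines means of a column). The complex V sum is at 8141 RPM or more in every ESC library, at most 7546 RPM in every BTAG library and at 6905 to 8156 RPM in BT and AG mid. The other complexes overlap between ESC and BTAG.

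By gene, ATP5B, the catalytic beta subunit, was at 1019.01, 1226.38, 894.08 and 754.79 RPM in reporter ESC. It was at 648.13, 385.11, 490.67 and 468.33 RPM on days 8 and 10, below all 4 ESC libraries, and fell by -0.97 ± 0.19 (limma adjusted p 2.76e-04), as it did on day 6 in aRB27 (-0.67 ± 0.20, 0.0128), where the call was lost without the libraries low in short members (-0.74, adjusted p 0.0942). ATP5E, the epsilon subunit of the central stalk, was at 758.38, 602.84, 610.56 and 1012.85 RPM in reporter ESC. In BTAG it was at 691.56 to 815.08 RPM on day 2, at 508.77 to 567.17 RPM on day 4 and at 252.64 to 562.92 RPM from day 6 on. It fell by -0.85 ± 0.28 on day 6 in GK15, by -1.05 ± 0.25 in aRB27, by -0.97 ± 0.23 on days 8 and 10 and by -0.17 ± 0.04 per day, and of these the day 6 calls were lost without the libraries low in short members, at -0.88 in GK15 and -0.46 in aRB27. In the BT libraries ATP5E was at 969.25 to 1099.79 RPM, above every BTAG library, with no call on day 4 (log2 difference 0.95). ATP5A1, the alpha subunit, was called in no comparison, with 1186.33 to 1763.63 RPM in reporter ESC and 858.74 to 1656.26 RPM in BTAG.

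The proton-translocating subunit c is encoded by ATP5G1, ATP5G2 and ATP5G3, whose mature proteins are the same. ATP5G3 was at 1544.55, 1291.11, 1538.05 and 1780.57 RPM in reporter ESC and at 1021.41, 748.05, 799.33 and 731.52 RPM on days 8 and 10. ATP5G3 and ATP5G1 fell on days 8 and 10 (-0.90 ± 0.18 and -0.82 ± 0.21, limma adjusted p 4.21e-04 and 3.22e-03) and on day 6 in aRB27 (-0.85 ± 0.20 and -0.82 ± 0.23), the day 6 calls being lost without the libraries low in short members, at -0.55 and -0.32. ATP5G2 was called in no comparison, with 595.93 to 996.5 RPM in reporter ESC and 777.53 to 1019.4 RPM on days 8 and 10. ATP5H and ATP5F1, subunits of the peripheral stalk, fell on day 2 (-0.62 ± 0.17 and -0.52 ± 0.17) and on days 8 and 10 (-0.43 ± 0.15 and -0.51 ± 0.15), of which the day 2 call of ATP5F1 and the later call of ATP5H were lost without the libraries low in short members, at -0.47 and -0.39. ATP5C1, the gamma subunit, fell on days 8 and 10 (-0.47 ± 0.14).

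Among the 15 BTAG libraries alone, 3 of 76 members rose with the day of induction and 7 fell, beside 27.3% of all entries (9.19% rose and 18.1% fell). With a change of at least 1 on the log2 scale over 8 days as a further condition, 4 were called, beside 19.4% of all entries. Those that rose were SDHA, COX7A2L and ATP5D, the delta subunit of the central stalk (0.13 ± 0.04 per day), and those that fell were ATP5E, NDUFS4, ATP5G3, NDUFB8, NDUFB10, ATP5C1 and NDUFA4, by 0.07 to 0.17 per day. The split turned on the scaling: 4 rose and 2 fell with median-of-ratios scaling, and 6 rose and 3 fell with quantile normalization, whereas the slope of SDHA stayed between 0.18 and 0.23 per day in all alternatives run. Between days 8 and 10 and day 6 in GK15, limma called 0 of 76 members (8 at an unadjusted p under 0.05, 0 by edgeR), beside 0.271% of all entries. Between aRB27 and GK15 at matched days it called 0 (1 at an unadjusted p under 0.05, 0 by edgeR), beside 0.103% of all entries. Neither comparison was run without the libraries low in short members.

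Between gates of the same day and medium few members differed. In BT against BTAG on day 4, 3 of 76 fell (COX4I2, SDHA and NDUFS1) and none rose, beside 16.5% of all entries (8.76% rose and 7.73% fell). In AG mid against BTAG, SDHA alone fell and none rose, beside 12.2% of all entries (5.4% rose and 6.81% fell). Both AG mid groups were 1 library each and borrowed their spread from the fit.

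Between the ESC of reporter and transgene-free lines, limma called 0 of 77 members (7 at an unadjusted p under 0.05, 0 by edgeR), beside 0.2% of all entries. The median log2 difference of the members was 0.24 in this fit. It was -0.05 without the libraries low in short members, here transgene-free libraries 1 and 5 and reporter ESC library 2. Cell line and group cannot be told apart here. In the mouse, 1 of 78 tested members rose from day 4 to day 6 and none fell, beside 4.3% of all genes tested (2.01% rose and 2.29% fell; 2.59% were called with a log2 difference of at least 1, and no member was). This was Cox5a, a nuclear subunit of complex IV, at 510.06 and 627.07 RPM on day 4 and 780.66 and 855.64 RPM on day 6 (log2 difference 0.53 ± 0.12, limma adjusted p 0.0377). Of the 78 members 56 had a positive difference, with a median of 0.11 beside -0.05 over all genes. Sdha was at 224.34 and 219.63 RPM on day 4 and at 241.75 and 249.02 RPM on day 6 and was not called, and Cox4i2 was listed at 0 in all 4 libraries. The mouse table was normalized on its own and has no ESC, so no monkey contrast was set against it.

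The genes that build, feed and regulate the chain were read from lists of known factors. The counts for days 8 and 10 stand beside 22.1% of all entries that rose and 26.6% that fell. Of 45 tested assembly factors, 4 rose and 8 fell: COX16, which assembles complex IV, rose by 1.57 ± 0.28 and NDUFAF4, a complex I assembly factor, fell by -1.29 ± 0.20, as it did on day 6 in both media. Of 15 carriers, 3 rose and 6 fell on the same days, with ETFB and ETFDH, which pass electrons from fatty acid oxidation to ubiquinone, rising by 1.27 ± 0.22 and 0.89 ± 0.34, and COQ3, an enzyme of ubiquinone synthesis, falling by -1.18 ± 0.26. Of 13 citrate cycle genes, none rose and 6 fell on days 8 and 10, led by IDH2 (-1.58 ± 0.21), OGDH (-1.27 ± 0.20) and MDH2 (-0.89 ± 0.14), dehydrogenases of the cycle. IDH2 was higher in BT than in BTAG on day 4 (1.67 ± 0.29), where SDHA was lower. FH, the enzyme that follows complex II in the cycle, rose on day 6 in GK15 (1.21 ± 0.29) and in no other comparison.

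Of the genes that regulate the chain, MYC and UCP2 differed in every comparison of BTAG with ESC. MYC, a transcription factor that promotes growth and mitochondrial biogenesis, was at 48.35 to 97.96 RPM in reporter ESC and at 1.1 to 17.53 RPM in BTAG, with log2 differences of -3.10 to -3.61 over the 4 comparisons with ESC. PPARGC1B, a coactivator of mitochondrial genes, fell in all 4 as well (-1.90 to -2.68), and TFAM, which packs and transcribes the mitochondrial genome, in 3 of them (by -1.02 ± 0.18 on days 8 and 10). ESRRG, a nuclear receptor of energy metabolism, rose with the day by 0.48 ± 0.08. On days 8 and 10, 2 of 19 tested regulators rose and 6 fell. UCP2, an uncoupling protein family member of the inner membrane, was at 5.39 to 27.65 RPM in reporter ESC and 213.85 to 586.61 RPM in BTAG, with log2 differences of 4.15 to 4.71. It was at 161.94 to 283.99 RPM in BT and at 40.02 and 45.72 RPM in AG mid, where it was lower than in BTAG (-3.24 ± 0.47). The mitochondrial antioxidant enzymes SOD2 and PRDX3 fell on day 6 in both media and on days 8 and 10, with PRDX3 at -1.65 ± 0.25 on days 8 and 10.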

How the data were processed

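The deposited values were RPM, reads scaled to the library total, made by the authors from 3′ end RNA-seq of 1 ng of total RNA, per the labels' protocols and the file names. The submitters' processing notes name cutadapt 1.3, TopHat 1.4.1, Cufflinks 2.2.0 and, for the mouse, GRCm38; the sources used here do not name the monkey build. Of 38 monkey libraries 9 of doubtful label were left out, and 29 and 4 mouse libraries were used, each species within its own table. Of 9295 unnamed monkey entries, 704 were named by gene ID from the RefSeq annotation of the macaque, of which only names were used. The members and gene lists were chosen with earlier results of these data known.

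Entries with at least 10 RPM in at least 2 libraries of a fit were tested with limma 3.58.1 (R 4.3.3) with an intensity trend on log2(RPM + 1), and p-values were adjusted by Benjamini-Hochberg over all entries tested. A call is an adjusted p under 0.05 with no fold minimum. The 24 reporter-line libraries shared a fit, the 15 BTAG libraries gave the slope per day with medium as a term, and the 9 ESC libraries and the mouse libraries had fits of their own. No sample was dropped or imputed within a fit. Named genes were, in each comparison, up to 8 called members in each direction with the largest differences, complex II, the isoform pairs and subunit c genes, and up to 3 called genes from each list. Genes named beyond that rule, such as ATP5A1, NDUFA9, NDUFB5, TFAM and MYL2, were chosen after their values were seen.

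Alternatives were pseudocounts of 0.1 and 10, no filter or a mean of 20 RPM, scaling by median of ratios or by quantiles, a fold minimum, all libraries as labelled, only the groups compared, the title code as a term, each library left out in turn, and edgeR 4.0.16 quasi-likelihood on whole reads recovered from the deposited RPM steps, of which 99.38% to 99.8% of values were whole within 0.1 step. The alternative without libraries whose short members summed to under 1.2 times the long ones was chosen after seeing the data. The scripts were tested on simulated data sized as GK15 BTAG days 8 and 10 against reporter ESC. Of the simulated log2 changes, 3 of 67 were recovered at 0.5, 49 of 67 at 1 and 66 of 66 at 2, with 14 false calls. A member that was not called may thus have changed by a small amount.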

Additional observations from a re-analysis of the deposited data

Results flagged for a closer look

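Within groups of 4 or 5 libraries, 31 of 176 sets of values had 1 library set apart from the others by a wide gap, where chance gives about 1 in 20. Of these, 18 were in library 1 of the transgene-free ESC, whose ratio of short to long members was 0.0888. It was low for 12 members, with NDUFA1 at 7.28, NDUFA12 at 16.38, NDUFB11 at 24.57, NDUFB4 at 19.11, NDUFB6 at 57.34, NDUFS4 at 41.87, COX7B at 27.31 and COX8A at 16.38 RPM. The complex V members low there were ATP5G2 at 222.08, ATP5J at 13.65, ATP5J2 at 7.28 and ATP5L at 13.65 RPM. It was high for 5 members, NDUFS1 at 176.57, UQCRC1 at 614.36, ATP5A1 at 4230.45, ATP5B at 2990.81 and ATP5F1 at 331.3 RPM. Library 2 of the same group and line was high for NDUFB8 at 425.08, COX5A at 27.79, COX7B2 at 67.12, COX8C at 2.17 and ATP5G1 at 887.33 RPM.

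In the reporter ESC, library 2, the library of line 656BTAG63, had a complex II sum of 571.33 RPM (378.21 to 404.92 RPM in the others) and 542.42 RPM without SDHA. SDHD was at 314.58 RPM there and NDUFB9, lower than in the others, at 112.63 RPM. Library 4 was high for COX6C at 356.65 RPM, library 3 for COX7A2L at 214.95 and COX8C at 0.44 RPM, and library 1 for COX7B2 at 18.09 RPM.

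Among the 9 libraries left out for a doubtful label, 7 had SDHA above every reporter ESC library used, up to 221.45 RPM in a library labelled AG mid in GK15 on day 4.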

How the results depend on the processing

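No paired analysis was possible because the labels give no replicate numbers that groups share; the code in the titles, which does not number replicates, was fitted as a term instead. The count of called members, with 7 on day 6 in GK15, 20 on day 6 in aRB27, 6 on day 2, 24 on days 8 and 10, 10 for the slope, 3 in BT, 1 in AG mid and 1 in the mouse, moved as follows, and the causes were not tested. On day 6 in GK15 it was 1 with no filter, 2 with a fold minimum, 0 with all libraries as labelled and 2 without the libraries low in short members. On day 6 in aRB27 it was 13 with no filter, 12 with median-of-ratios scaling, 11 with quantile normalization, 5 with a fold minimum, 10 by edgeR, 12 with all libraries as labelled, 12 with only the groups compared and 3 without the libraries low in short members. On day 2 it was 11 with median-of-ratios scaling, 2 with a fold minimum, 0 with all libraries as labelled, 3 with only the groups compared and 3 with the title code as a term. On days 8 and 10 it was 3 with a fold minimum, and between these days and day 6 it was 1 with all libraries as labelled, against 0. The slope gave 6 with median-of-ratios scaling and 4 with a fold minimum. In BT it was 6 with quantile normalization, 0 with all libraries as labelled, 5 with only the groups compared and 5 with the title code as a term, and in AG mid 2 with no filter, 0 with all libraries as labelled and 3 with the title code as a term. In the mouse it was 0 with no filter, 3 with median-of-ratios scaling, 0 with a fold minimum and 3 by edgeR.

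With each library left out in turn the counts ran from 2 to 7 on day 6 in GK15, 6 to 31 on day 6 in aRB27, 3 to 6 on day 2 (3 without aRB27 library 2), 15 to 23 on days 8 and 10, 6 to 10 for the slope (6 without aRB27 day 2 library 2 or GK15 day 10 library 2), 1 to 2 in BT (1 without BT day 4 library 2) and 0 to 1 in the mouse. On day 6 in aRB27 the count was 13 without reporter ESC library 1, beside the libraries named above. In AG mid it was 1 throughout, and it was 0 throughout for the medium, for days 8 and 10 against day 6 and for the ESC lines. For single genes, leaving out a library kept 1263 results on their side of the threshold, lost 87 calls and gained 7; the other settings kept 1853, lost 117 and gained 14. None of these changed the direction of a called gene. Median-of-ratios scaling moved the median of all entries for days 8 and 10 against day 6 from -0.12 to 0.00, and that of the members from 0.00 to 0.13. Reads per library, 1.077 to 6.799 M, limit the low members such as COX4I2, COX7A1 and SDHC.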
